A study of Homo sapiens with 4 samples.

Results

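Mitochondrial ribosomal protein genes, whose symbols begin with MRPL or MRPS followed by a number, were examined in 4 Affymetrix PrimeView arrays. Each gene was read from 1 probe set, the brightest of those assigned to that symbol alone. This gave 74 genes of 18132 tested. RefSeq (GRCh38.p14) lists 77 coding genes of this name, and the other 3 (MRPL23, MRPL53 and MRPS24) have probe sets with several symbols and were not counted. All arrays carry RNA labelled as Hs578T, a human breast cancer line with mesenchymal features grown with insulin. The treated group (2 arrays, labelled replicates 1 and 5) is ELK3 knockdown, made stable with a lentiviral shRNA against ELK3, an ETS family transcription factor. The comparison group (2 arrays, replicates 1 and 2) is labelled ELK3 sh control. Whether these numbers mark shRNAs, clones or cultures is not in the labels, so p-values measure the spread between these arrays, which may be technical.

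The mitochondrial ribosome translates the few proteins encoded by mitochondrial DNA, all of them membrane subunits of the oxidative phosphorylation complexes. Its rRNAs come from mitochondrial DNA, while its proteins are encoded in the nucleus, made in the cytosol and imported. Part of these proteins have bacterial homologues, and part were added in the mitochondrial lineage. Promoters of nuclear genes for mitochondrial proteins often carry sites for ETS factors such as GABPA, for NRF1 and for YY1.

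All values are RMA log2 signals, and a change is the knockdown mean minus the control mean. ELK3 was 4.16-fold lower in the knockdown arrays (log2 change -2.06, limma adjusted p = 2.57e-06). Pearson r over the probe sets was 0.996 within the knockdown, 0.998 within the control and 0.902 to 0.904 between groups. Of 8 mesenchymal markers of the line, 8 fell. The falls ran from 2.24-fold (VIM) to 412-fold (TGFBI), and AXL and THY1 fell 154-fold and 124-fold. FN1 fell 73.0-fold, while CD44, SPARC and CAV1 fell 8.56-fold, 8.11-fold and 5.22-fold. Except for VIM, these falls were larger than the 4.16-fold fall of ELK3 itself. TGFBI, AXL and THY1 had means of 5.47, 5.62 and 5.01 in the knockdown arrays, below the array medians of 6.76 to 6.80, while the means of SPARC, CAV1 and VIM there were 11.1, 11.1 and 13.1. The luminal markers (0 of 6 passed) and the leukocyte markers (0 of 5) did not move past the threshold, and EPCAM, CDH1 and PTPRC had group means of 3.62 to 4.41. The luminal marker GATA3 was brighter, at 8.55 in the knockdown and 8.44 in the control arrays. Of 4 endothelial markers, 2 fell (PECAM1 and KDR) and 0 rose, with group means from 4.84 to 6.90 over the list. The part of the shift in line markers in the changes below was not tested. These are bulk RNA measurements, in which fewer cells of a type and less RNA per cell cannot be told apart.

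The mitochondrial ribosomal protein genes were mostly higher in the knockdown arrays. Of 74 genes, 48 rose (64.9%), 10 fell (13.5%) and 16 did not pass an adjusted p under 0.05. Over all genes 29.5% were higher and 21.3% lower, together 50.8%. The set holds few dim genes, and dim genes pass less often. Among the 7169 genes at least as bright as its dimmest member, at a mean of 8.17, 44.7% were higher and 29.1% lower. The median change was 0.50 (quartiles 0.10 and 0.71), against -0.01 over all genes and 0.15 over those bright genes.

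The rise was moderate. Only MRPS2 rose over 4-fold, and 8 members (MRPS2, MRPS14, MRPL9, MRPL28, MRPS26, MRPS31, MRPS35 and MRPL41) rose more than 2-fold, where 10.2% of all genes and 11% of the bright genes did so. No member fell as much as 2-fold. The median member stood 0.51 above the control mean in knockdown replicate 1 and 0.47 above it in replicate 5. The median absolute gap between the knockdown arrays was 0.09, and between the control arrays 0.05, against a median absolute change of 0.58. The arrays of the groups did not overlap for 71 of the 74, where 75.3% of all genes and 89.4% of the bright genes were apart. The change exceeded both gaps between replicates for 68 members, and for 67.4% of all genes and 84.1% of the bright genes. With the threshold of the design text, a fold above 1.5 at an unadjusted p under 0.05, 30 members were higher and 5 lower, against 19.1% and 12.6% of all genes.

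**Figure D1:**
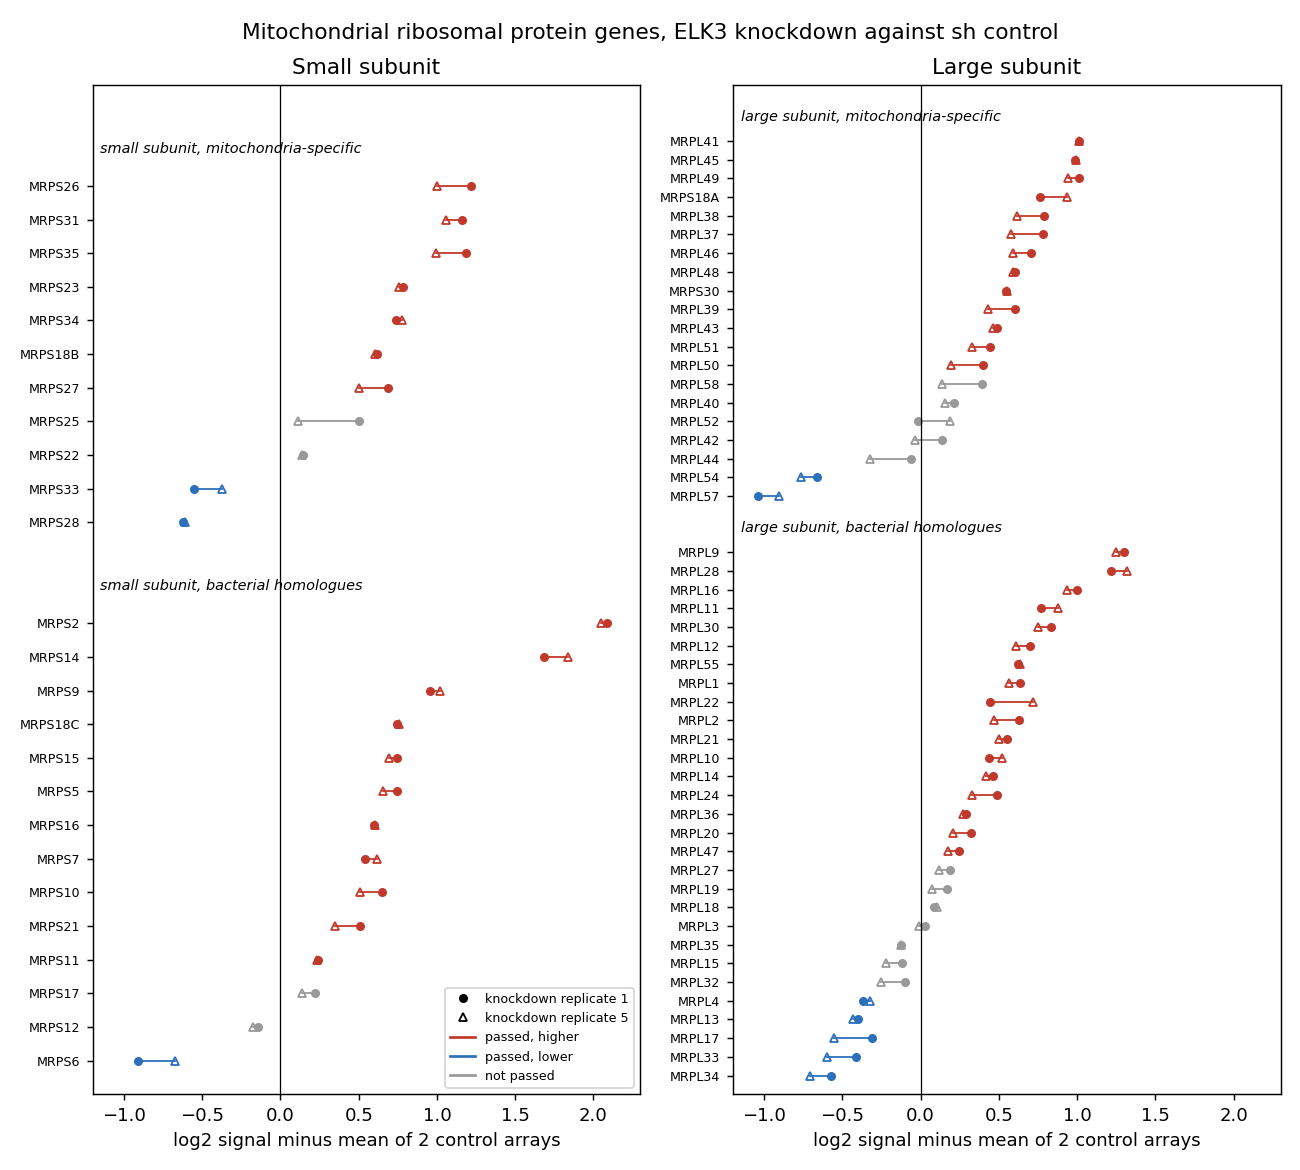
Log2 signal of each knockdown array minus the mean of the 2 control arrays (horizontal axis) for the 74 mitochondrial ribosomal protein genes. Genes are grouped by subunit and by listing here as bacterial homologues or as mitochondria-specific. Filled circles are knockdown replicate 1, open triangles replicate 5, and colour gives the limma call. The 48 red genes lie right of 0 and the 10 blue genes left of it, with replicate 1 of MRPS2 farthest right at 2.09 and replicate 1 of MRPL57 farthest left at -1.04. MRPS28 is drawn among the mitochondria-specific proteins, as listed here, although its standard name bS1m places it with the homologues.

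**Figure D2:**
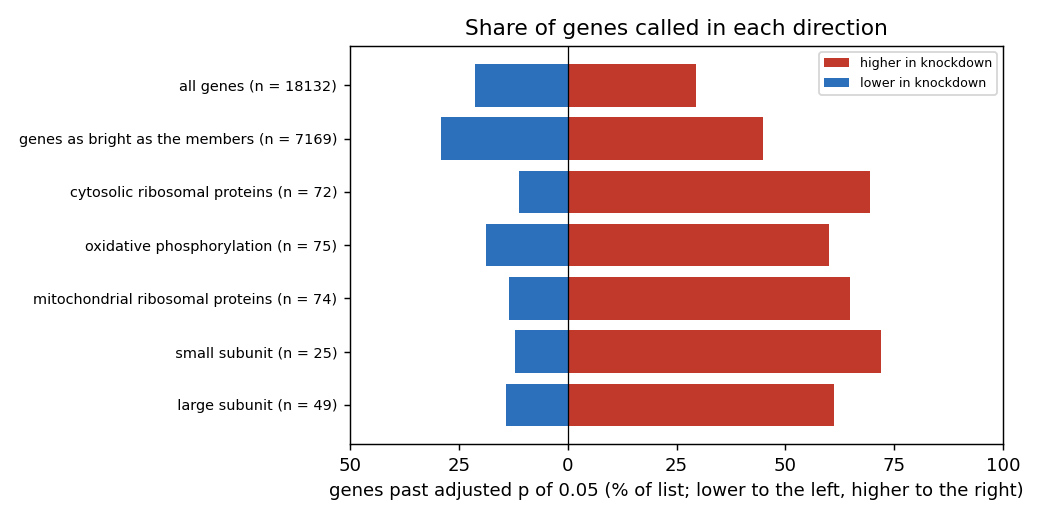
Share of genes past an adjusted p of 0.05 in each list (percent of the list, lower to the left of 0 and higher to the right). The mitochondrial ribosomal protein genes stand at 64.9% higher and 13.5% lower, beside 29.5% and 21.3% of all 18132 genes and 44.7% and 29.1% of the 7169 genes as bright as the members.

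ELK3 belongs to the ETS family, so the proximal promoters of a few members are shown with their matches to the ETS core. RefSeq promoters (GRCh38.p14) were matched by symbol for 67 of the 74 members. The search used the ETS core CCGGAAG, an NRF1 site with a base left open and the YY1 site AAGATGGC. Each was searched on both strands, in the 250 bases before to 50 after the start. The NRF1 pattern is wider than the palindromic site, which among the members with a match only MRPL17 held. Capitals mark a match. The sequences run 5′ to 3′ and give the 150 bases just before the start of the member with the largest rise (MRPS2), the member with the largest fall (MRPL57), and, among promoters with an ETS core there, 3 that rose and 2 that fell by large amounts.
MRPS2, chr9:135500532-135500681, plus strand: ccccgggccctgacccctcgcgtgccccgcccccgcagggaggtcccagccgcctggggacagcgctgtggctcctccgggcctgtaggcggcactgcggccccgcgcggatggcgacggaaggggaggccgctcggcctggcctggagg
MRPL57, chr13:21176508-21176657, plus strand: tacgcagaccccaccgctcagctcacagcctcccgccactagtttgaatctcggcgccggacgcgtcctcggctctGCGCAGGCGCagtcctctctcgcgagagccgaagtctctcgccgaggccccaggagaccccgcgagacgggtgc
MRPS26, chr20:3045902-3046051, plus strand: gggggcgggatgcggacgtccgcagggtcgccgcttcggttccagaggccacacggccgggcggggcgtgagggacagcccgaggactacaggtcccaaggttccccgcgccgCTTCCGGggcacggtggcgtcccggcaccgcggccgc
MRPS31, chr13:40771191-40771340, minus strand: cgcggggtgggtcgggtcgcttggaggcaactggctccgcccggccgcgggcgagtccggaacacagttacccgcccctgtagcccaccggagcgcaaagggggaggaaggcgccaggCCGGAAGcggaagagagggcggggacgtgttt
MRPS18A, chr6:43687792-43687941, minus strand: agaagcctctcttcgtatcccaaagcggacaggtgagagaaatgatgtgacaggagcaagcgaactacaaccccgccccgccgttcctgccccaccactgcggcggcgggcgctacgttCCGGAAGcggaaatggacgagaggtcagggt
MRPL54, chr19:3762532-3762681, plus strand: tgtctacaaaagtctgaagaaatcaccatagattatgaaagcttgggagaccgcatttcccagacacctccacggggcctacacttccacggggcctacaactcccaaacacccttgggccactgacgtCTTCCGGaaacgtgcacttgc
MRPL33, chr2:27771569-27771718, plus strand: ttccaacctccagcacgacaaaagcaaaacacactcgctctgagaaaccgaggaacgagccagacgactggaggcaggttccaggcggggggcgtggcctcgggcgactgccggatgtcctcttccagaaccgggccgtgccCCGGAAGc

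The ETS core occurred in MRPS26, MRPS31 and MRPS18A, which rose, and also in MRPL54 and MRPL33, which fell. It lay between 8 and 37 bases before the start in these 5. MRPS2, with the largest rise, held none of the 3 motifs in this stretch, and MRPL57 held an NRF1 site only. Over the whole window, 28 of 67 member promoters (41.8%) held the ETS core, against 10.7% of all 27305 promoters of the table, 14.6% of those of tested genes and 22.3% of those of the bright genes. It was present in 18 of 45 members that rose, 3 of 8 that fell and 7 of 14 that did not pass. The median change was 0.45 in members with the core and 0.58 in members without it. The YY1 site was found in 19 of 67 (28.4%), against 3.03% of all promoters and 6.95% of those of bright genes. It was in 15 of the 45 that rose and 0 of the 8 that fell, and the medians with and without it were 0.55 and 0.56. The NRF1 site was found in 8 of 67 (11.9%), against 6.28% of all promoters and 14.2% of those of bright genes. It was in 5 of the 45 that rose, 3 of the 8 that fell and 0 of the 14 that did not pass, and the medians with and without it were 0.36 and 0.58. A match of letters does not show that a factor binds there.

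In the small subunit, which decodes the mRNA, 18 of 25 genes rose and 3 fell, with a median change of 0.60. Of the 14 listed here as having bacterial homologues 11 rose and 1 fell. MRPS28, whose standard name bS1m places it with the homologue of S1, was listed with the other class, and counting it here instead gave 11 of 15 that rose and 2 that fell. MRPS2, the homologue of bacterial S2, had signals of 12.02 and 11.98 in the knockdown arrays and 9.87 and 10.00 in the control arrays. It was 4.19-fold higher (log2 change 2.07 ± 0.07 SE, adjusted p = 8.36e-07 by limma). The arrays of the groups were far apart. Of the 18132 genes, 544 rose more. MRPS14, the homologue of S14 in the head of the subunit, read 11.10 and 11.25 in the knockdown arrays and 9.36 and 9.47 in the control arrays, and was 3.39-fold higher (log2 change 1.76 ± 0.08 SE, adjusted p = 3.49e-06 by limma). MRPS9, another head protein, read 10.26 and 10.32 in the knockdown arrays and 9.25 and 9.35 in the control arrays, which is 1.98-fold higher (log2 change 0.99 ± 0.08 SE, adjusted p = 3.86e-05 by limma). In each of these genes both knockdown arrays lay above both control arrays.

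MRPS18C, a homologue of S18, read 11.19 and 11.20 in the knockdown arrays and 10.37 and 10.53 in the control arrays on its brightest probe set and was 1.68-fold higher (log2 change 0.75 ± 0.07 SE, adjusted p = 0.00012 by limma). Its other probe sets went the opposite way, at -2.02 and -2.45, so the direction of this gene rests on the choice of probe set. MRPS6, the homologue of S6, fell. It read 9.55 and 9.79 in the knockdown arrays and 10.47 and 10.46 in the control arrays and was 1.73-fold lower (log2 change -0.79 ± 0.09 SE, adjusted p = 0.000287 by limma). Its 4 arrays did not overlap by group, and its knockdown arrays lay farther from each other than its control arrays. MRPS15 and MRPS5 were at 0.72 and 0.70 and passed, although each has a probe set of opposite sign (-0.28 and -0.20). MRPS11 passed at 0.24, has a probe set at -0.47, and lost its call without either control array. The other homologues that rose (MRPS7, MRPS10, MRPS16 and MRPS21) lay between 0.43 and 0.60, and MRPS12 and MRPS17, at -0.16 and 0.18, did not pass. Other, dimmer probe sets of MRPS12 stood at -0.31, -0.42 and 0.16, and those of MRPS17 between -0.03 and 0.09. MRPS10 stood at 0.58 on the probe set read, but at 0.09 and 0.17 on its others.

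Of the 11 small subunit proteins listed as mitochondria-specific 7 rose and 2 fell, and without MRPS28 7 of 10 rose and 1 fell. MRPS26 read 10.91 and 10.70 in the knockdown arrays and 9.63 and 9.77 in the control arrays and was 2.16-fold higher (log2 change 1.11 ± 0.09 SE, adjusted p = 6.2e-05 by limma). MRPS31, in the head of the subunit, read 10.02 and 9.92 in the knockdown arrays and 8.96 and 8.77 in the control arrays and was 2.16-fold higher (log2 change 1.11 ± 0.09 SE, adjusted p = 5.69e-05 by limma). MRPS35 read 11.81 and 11.62 in the knockdown arrays and 10.61 and 10.64 in the control arrays and was 2.13-fold higher (log2 change 1.09 ± 0.08 SE, adjusted p = 2.39e-05 by limma). The groups did not overlap in any of these 3, and the widest gap between control arrays was the 0.18 of MRPS31. MRPS23 was 1.71-fold higher (0.77), MRPS34, a protein needed to keep the small rRNA stable, stood at 0.76, and MRPS18B and MRPS27 at 0.61 and 0.59. MRPS28 and MRPS33 fell. MRPS28 read 10.23 and 10.24 in the knockdown arrays and 10.86 and 10.83 in the control arrays and was 1.53-fold lower (log2 change -0.61 ± 0.06 SE, adjusted p = 0.000148 by limma). MRPS33 was 1.38-fold lower (log2 change -0.46 ± 0.08 SE, adjusted p = 0.00248 by limma). MRPS22 (0.14) and MRPS25 (0.31) did not pass, and MRPS25 had the widest gap between knockdown arrays of all members, at 0.40. The other, dimmer probe sets of MRPS25 stood at 0.11, 0.57, 1.24 and 0.48.

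In the large subunit, which forms the peptide bond, 30 of 49 genes rose and 7 fell, with a median change of 0.41. That median includes MRPS18A and MRPS30, which carry small subunit names but sit in the large subunit. Of the 29 with bacterial homologues 17 rose and 5 fell. MRPL9, the homologue of L9, read 11.08 and 11.03 in the knockdown arrays and 9.73 and 9.83 in the control arrays and was 2.42-fold higher (log2 change 1.27 ± 0.07 SE, adjusted p = 7.71e-06 by limma), but its other probe sets were at 0.65, 0.04 and -0.05. MRPL28, the homologue of L28, read 12.49 and 12.59 in the knockdown arrays and 11.28 and 11.28 in the control arrays and was 2.41-fold higher (log2 change 1.27 ± 0.06 SE, adjusted p = 2.83e-06 by limma). Both knockdown arrays exceeded both control arrays by over 1 log2 unit in MRPL9 and MRPL28. MRPL16, beside the peptidyl transferase centre, was 1.95-fold higher (log2 change 0.97 ± 0.07 SE, adjusted p = 2.05e-05 by limma). MRPL11, at the base of the stalk that recruits translation factors, was 1.77-fold higher (log2 change 0.82 ± 0.06 SE, adjusted p = 3.5e-05 by limma). MRPL12 and MRPL10, also stalk proteins, rose by 0.65 and 0.48. The stalk is not listed in full here, and these genes were picked with their values in view.

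The 5 large subunit homologues that fell were MRPL34, MRPL33, MRPL17, MRPL13 and MRPL4. MRPL34 read 11.37 and 11.24 in the knockdown arrays and 11.92 and 11.97 in the control arrays and was 1.56-fold lower (log2 change -0.64 ± 0.07 SE, adjusted p = 0.000154 by limma). MRPL33 read 10.61 and 10.42 in the knockdown arrays and 11.01 and 11.03 in the control arrays, a fall to 10.51 ± 0.13 (SD, n = 2), and each of its 3 probe sets was lower, the changes lying between -0.51 and -0.48. MRPL17 and MRPL13 stood at -0.43 and -0.42, and their other probe sets at -1.16 and -0.50. MRPL4 stood at -0.35, has 2 probe sets above 0 (0.13 and 0.10), and its call was lost when its probe sets were averaged (-0.10). The core proteins did not move together: MRPL2 rose by 0.55, MRPL3 stood at 0.01 with both groups at 12.5, and MRPL4 fell. MRPL20, at 0.27, passed but has a probe set at -0.08. Of the others that rose, MRPL30 stood at 0.79 and MRPL55, MRPL1, MRPL22, MRPL21, MRPL14, MRPL24, MRPL36 and MRPL47 lay between 0.21 and 0.63. MRPL22 stood at 0.09 and 0.07 on its other probe sets, which are dim (means 4.28 and 4.15). Its call was lost when its probe sets were averaged. MRPL47 lost its call without either control array, and MRPL2, MRPL4 and MRPL20 lost theirs without control replicate 1. The 7 that did not pass (MRPL3, MRPL15, MRPL18, MRPL19, MRPL27, MRPL32 and MRPL35) lay between -0.18 and 0.15 on the probe sets read. The other probe sets of MRPL35 stood at -0.56, -0.42 and -0.93, and that of MRPL19 at 0.64. Those of MRPL3, MRPL15 and MRPL18 lay between 0.06 and 0.16.

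Of the 20 large subunit proteins listed here as mitochondria-specific 13 rose and 2 fell. MRPL41 read 11.46 and 11.46 in the knockdown arrays and 10.41 and 10.49 in the control arrays and was 2.02-fold higher (log2 change 1.01 ± 0.06 SE, adjusted p = 1.23e-05 by limma). Its knockdown arrays were nearly equal, and both lay above the control arrays. MRPL45, near the exit of the peptide tunnel, read 10.05 and 10.05 in the knockdown arrays and 9.06 and 9.06 in the control arrays and was 1.98-fold higher (log2 change 0.99 ± 0.07 SE, adjusted p = 2.95e-05 by limma). MRPL49 was 1.97-fold higher (log2 change 0.98 ± 0.06 SE, adjusted p = 1.6e-05 by limma). MRPS18A was 1.80-fold higher (log2 change 0.85 ± 0.09 SE, adjusted p = 0.000145 by limma) and has a second probe set at -0.16. MRPS30 rose by 0.55. Among proteins of the central protuberance, which is not listed in full here, MRPL38 and MRPL46 rose by 0.70 and 0.65. MRPL48, in the same region, rose by 0.60 but has a probe set at -0.12 and its call was lost when its probe sets were averaged (0.21). MRPL40 (0.18) and MRPL52 (0.08), also there, did not pass, nor did MRPL42 (0.05) and MRPL44 (-0.19). The groups overlapped in MRPL52 and MRPL42. MRPL37, MRPL39, MRPL43 and MRPL51 rose by 0.39 to 0.68. The release factor homologue MRPL58, which frees peptides from stalled ribosomes, did not pass (0.27). MRPL50 passed narrowly (0.30, adjusted p = 0.0433); its other probe set is at -0.24, and it lost its call without any of 3 arrays, knockdown replicate 1, control replicate 1 or control replicate 2.

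MRPL57 and MRPL54 were the 2 large subunit proteins listed as mitochondria-specific that fell. MRPL57 read 10.13 and 10.26 in the knockdown arrays and 11.15 and 11.19 in the control arrays and was 1.96-fold lower (log2 change -0.97 ± 0.07 SE, adjusted p = 2.89e-05 by limma), the largest fall in the set. Each of its 4 probe sets was lower, the changes lying between -1.06 and -0.83. MRPL54 read 9.93 and 9.83 in the knockdown arrays and 10.58 and 10.60 in the control arrays and was 1.64-fold lower (log2 change -0.71 ± 0.07 SE, adjusted p = 0.000131 by limma). Neither gene's groups overlapped, and 1407 of the 18132 genes fell more than MRPL57.

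Across the set, 28 members had 1 probe set and 46 had several. In 32 of the 46 every probe set had the sign of the one read, and 73 of 90 further probe sets shared it. The change was smaller than on the one read in 50 of the 90. Of the members that passed, 10 had at least 1 probe set of the opposite sign. The probe set read was one whose name marks cross-hybridisation for 17 members, including MRPL34, MRPL45 and MRPS35.

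Other subunits and factors of mitochondrial translation also leaned higher. For comparison, 29.5% of all genes were higher and 21.3% lower, and 44.7% and 29.1% of the bright genes. Differences between the lists and these shares were not tested. Among the mitoribosome subunits with other names, CHCHD1 and DAP3, both small subunit proteins, rose by 0.67 and 0.57, PTCD3 rose by 0.37, and GADD45GIP1, a large subunit protein, stood at -0.07 and did not pass (3 of 4 higher, 0 lower). PTCD3 lost its call without control replicate 2 (0.37, limma adjusted p = 0.0522). Of 15 translation factors 10 rose (66.7%) and 0 fell, with a median of 0.50. TSFM, the exchange factor of the elongation factor TUFM, was 2.26-fold higher (log2 change 1.18 ± 0.08 SE, adjusted p = 1.79e-05 by limma). MRRF, which recycles ribosomes, rose by 1.05. MTRF1, a release factor, rose by 0.95 at a dim signal (6.73 and 6.27 in the knockdown arrays, mean 5.55 in the control arrays). TUFM rose by 0.52. Without knockdown replicate 1, 1 translation factor fell.

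Of 21 genes for charging mitochondrial tRNAs, 15 rose (71.4%) and 3 fell (14.3%), with a median of 0.59. GATC, part of the amidotransferase that makes glutaminyl-tRNA, was 2.68-fold higher (log2 change 1.42 ± 0.10 SE, adjusted p = 2.32e-05 by limma). TARS2 and EARS2, the synthetases for threonine and glutamate, rose by 1.39 and 1.21. The largest fall was that of GARS1 (-1.24), whose protein also serves the cytosol, followed by CARS2 (-0.59) and FARS2 (-0.45). FARS2 lost its call without control replicate 1 or without control replicate 2 (limma adjusted p = 0.0546 and 0.0527).

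Of 30 assembly and rRNA factors 17 rose (56.7%) and 3 fell (10%), with a median of 0.44. METTL15, which methylates the small rRNA, and MTG1, a GTPase of large subunit assembly, were 2.34-fold and 2.24-fold higher, and HSD17B10, a subunit of mitochondrial RNase P, rose by 1.13. FASTKD2, which binds the large rRNA, fell by 0.81, MPV17L2 fell by 0.62 and MTERF3 fell by 0.35. MTERF3 lost its call without control replicate 2 (-0.32, limma adjusted p = 0.0891). Of 12 genes of mitochondrial DNA upkeep and transcription 5 rose (41.7%) and 3 fell (25%). These shares lay near those of the bright genes (44.7% and 29.1%). TFAM, which packages mitochondrial DNA and starts its transcription, was 2.28-fold higher (log2 change 1.19 ± 0.07 SE, adjusted p = 1.43e-05 by limma), and TWNK, the replicative helicase, and POLG2, a subunit of the polymerase, rose by 0.95 and 0.90. TFB2M, the partner of TFAM at mitochondrial promoters, fell by 0.97, the protease gene LONP1 fell by 0.61, and the nuclease gene MGME1 fell by 0.22. MGME1 lost its call without either control array (limma adjusted p = 0.175 and 0.180).

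Among 11 regulators of mitochondrial biogenesis 7 rose (63.6%) and 2 fell (18.2%). The coactivator gene PPARGC1A rose by 0.91 at a dim signal (4.81 in the control arrays). GABPA, an ETS factor, rose by 0.69, and HCFC1, a coactivator gene, by 0.68. NRF1 and YY1 rose by 0.41 and 0.27. MYC, a factor that promotes ribosome genes, was 3.09-fold lower (log2 change -1.63 ± 0.08 SE, adjusted p = 5.81e-06 by limma), and ESRRA fell by 0.33. ESRRA lost its call without either control array (limma adjusted p = 0.0613 and 0.153). Without control replicate 1, 4 of these regulators rose and 1 fell, and without control replicate 2 1 fell. Without moderation of the variances 1 rose and 1 fell.

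**Figure D3:**
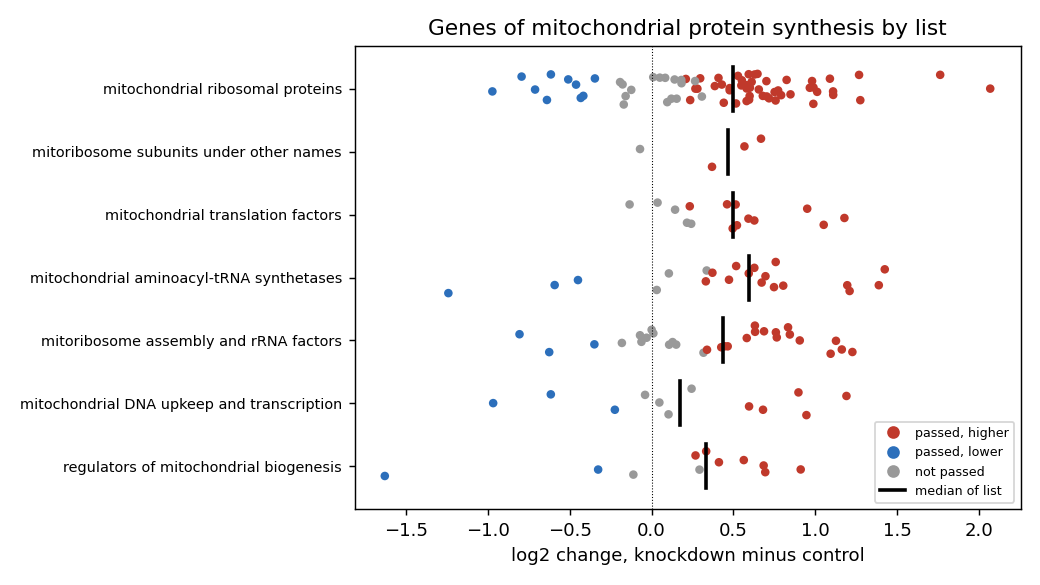
Log2 change of each gene (knockdown minus control, horizontal axis) in 7 lists of mitochondrial protein synthesis. Points are genes coloured by the limma call, spread vertically only for legibility, and black bars are list medians. The medians of the ribosomal protein, translation factor and tRNA charging lists lie at 0.50, 0.50 and 0.59, and that of mitochondrial DNA upkeep and transcription at 0.17.

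The cytosolic ribosomal protein genes and the nuclear genes of oxidative phosphorylation also leaned higher. Of 72 cytosolic genes 50 were higher (69.4%) and 8 lower (11.1%), with a median of 0.22. Of 75 oxidative phosphorylation genes 45 were higher (60%) and 14 lower (18.7%), with a median of 0.25. Among the bright genes 44.7% were higher and 29.1% lower. At a fold over 1.5, 5 cytosolic genes and 19 oxidative phosphorylation genes were higher, against 30 of the 74 mitochondrial ones. The lists differ in signal: the median gene mean was 13.8 in the cytosolic list, near the highest of all genes (14.5), 11.9 in the oxidative phosphorylation list and 10.7 in the mitochondrial one. The part of the signal level in the size of these changes was not tested, and neither was the difference between the lists, which share the same 4 arrays. Probe sets of cytosolic ribosomal proteins often cross-hybridise, and with those left out 42 cytosolic genes were tested, of which 21 were higher and 9 lower. Without control replicate 1, 5 cytosolic and 6 oxidative phosphorylation genes were lower, and without control replicate 2 5 of each. Without moderation 24 cytosolic genes were higher and 4 lower, and 7 oxidative phosphorylation genes were lower.

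The changes also varied with position in the genome (RefSeq order, GRCh38.p14), whose part in the result was not tested. The genes are scattered over 21 chromosomes. All 8 on chromosome 1 rose, and so did 6 of 8 on chromosome 17 and 5 of 6 on chromosomes 6 and 11 each. None of the 4 on chromosome 19 rose and 3 fell, and none of the 3 on chromosome 8 rose and 2 fell (MRPL13 and MRPS28). Over all genes tested there, chromosome 8 had 11.1% higher and 48.1% lower, chromosome 19 had 23.9% higher and 21.2% lower, and chromosome 1 had 31.9% higher and 18.2% lower. Across the 74 members the change correlated with the median change of the nearest tested genes, 5 on each side (Pearson r = 0.487, Spearman rho = 0.575), where over 18081 genes r was 0.208 and rho 0.266. Neighbouring genes share arrays, and some share neighbours, so this is a description. The members exceeded their neighbours' median in 57 of 74 cases (77.0%), against 49.8% of all genes, and by a median of 0.36. The all-gene values cover dimmer genes too, and the bright genes alone were not compared here. Other members were left out of the members' neighbours, and no such step was made for all genes.

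Some members share a promoter region with a gene read in the opposite direction. With a partner start within 1000 bases upstream, 18 members had such a partner, in 17 pairs (MRPL46 and MRPS11 are partners of each other). In 10 pairs both genes passed, and both moved the same way in all 10, where among all 301 such pairs of passing genes 73.1% did. That share covers genes of all signal levels. MRPS2 (2.07) lies beside PIERCE1 (2.67), MRPL37 (0.68) beside CYB5RL (1.26), and MRPL49 (0.98) beside FAU (0.20), a cytosolic ribosomal protein gene. MRPL57 (-0.97) lies beside SKA3 (-1.28), a spindle protein gene, and MRPL54 (-0.71) beside APBA3 (-1.09). MRPL18, MRPL27 and MRPS12, which did not pass at 0.10, 0.15 and -0.16, lie beside TCP1 (0.51), EME1 (-0.44) and SARS2 (0.47), which did. Conversely, MRPS18C (0.75) and MRPS27 (0.59) rose beside HELQ (0.12) and PTCD2 (0.05), which did not pass.

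**Figure D4:**
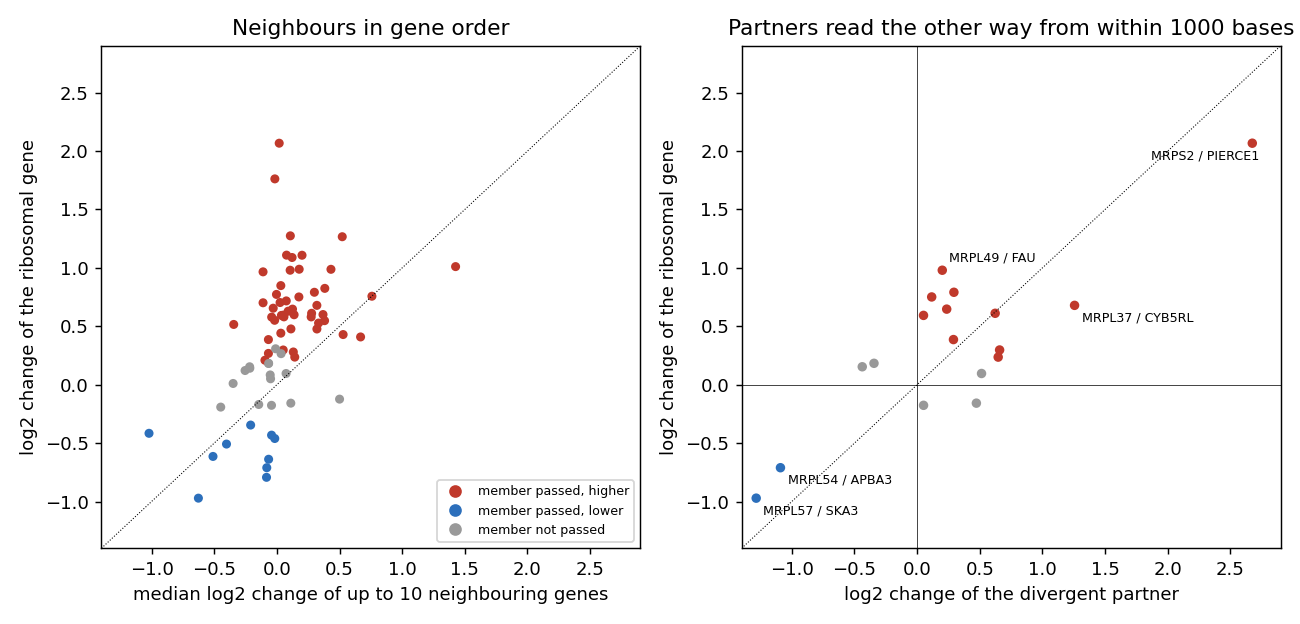
Log2 change of each mitochondrial ribosomal protein gene (vertical axes) against the median change of up to 10 neighbouring genes (left) and against the change of a partner gene read the other way from within 1000 bases (right, 18 members). Colours give the limma call of the member and dotted lines mark equal change. On the left 57 of 74 points lie above the line, and on the right MRPS2 with PIERCE1 at 2.67 and MRPL57 with SKA3 at -1.28 lie at opposite ends.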

How the data were processed

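RNA of 2 ELK3 knockdown and 2 sh control samples was measured. Per the submitters' processing notes, the authors used RMA for the deposited log2 signals (49293 probe sets an array), a method that makes the arrays' distributions alike. Its version is not given in the sources used here. Array medians lie between 6.76 and 6.80. Arrays have no read depth, so their number limits precision, and detection calls were not used here.

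GEO's platform annotation gave the symbols (44988 with 1 symbol, 1832 with several, 2473 unnamed). Each gene was read from its brightest single-symbol probe set. All 18132 genes were fitted with limma 3.58.1 in R 4.3.3 (group only, lmFit, eBayes with an intensity trend, two-sided, Benjamini-Hochberg over all genes, adjusted p under 0.05; 2 residual and 4.83 prior degrees of freedom). With 3 distinct splits of 2 against 2 arrays an exact permutation test cannot go below p = 0.333. Simulated data with 200 changed genes among 18132 gave 38.2%, 91.8% and 99.5% recovery of 1.5-fold, 2-fold and 4-fold changes with 4.86% false calls. In the data 50.8% of genes passed, so the adjusted threshold is less strict there. The simulated rates therefore do not carry over to these data. Genes and lists were chosen with earlier results of these data known, and Y-linked genes were left out. In each of 4 structural groups the 4 largest rises and falls that passed are named, with members whose probe sets disagree, and up to 3 of each direction per companion list. Other genes were named after their values were seen. The place of MRPS28 was an alternative chosen after seeing the data. The other alternatives were trend, moderation, probe-set choice, dim genes, normalization, thresholds and leaving out each array. Figures used matplotlib 3.10.9 in Python 3.11.15.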

Additional observations from a re-analysis of the deposited data

How the results depend on the processing

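Leaving out 1 array at a time gave a median change of 0.47 to 0.51 over the members, against -0.03 to 0.02 over all genes. The fit without moderation gave 33 higher and 6 lower (16.1% and 11.9% of all genes), and the selection by fold over 1.5 and p under 0.05 gave 30 higher and 5 lower. The mean of all probe sets gave a median change of 0.38. Under it MRPS18C turned to -1.24. Members that did not pass, such as MRPL3, MRPL42 and MRPL52, lie close enough to 0 to change sign when 1 knockdown array is left out. Of the members that passed, 23 higher and 3 lower ones were called the same way in all 14 alternatives. Cross-hybridising probe sets left out removes MRPL34, MRPL41 and MRPS18B, which had no probe set of another kind, from the test. The cause of the other changes was not tested. No paired analysis was possible because the groups share only replicate number 1. The limit on precision is the 2 arrays per group, and without 1 of them the lone array of a group is assumed to vary like the other group.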

Other observations

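Probe sets of related symbols outside the counting rule were read as values. The probe set for MRPL23, listed with 2 copies of the symbol, was higher by 1.03 in the knockdown arrays (11.28 and 11.47 against 10.32 and 10.37). That of MRPS24, shared with the readthrough gene URGCP-MRPS24, differed by 0.01 (12.12 and 12.13 against 12.11 and 12.12). The brighter probe set shared by CCDC142 and MRPL53 differed by 0.06. KGD4, formerly named MRPS36 and now assigned to the oxoglutarate dehydrogenase complex, was higher by 0.81, 0.32 and 0.32 on its 3 probe sets. MRPL20-AS1, the antisense gene beside MRPL20, was higher by 0.88 and 0.51 on its 2 probe sets, where MRPL20 itself was higher by 0.27; whether those probe sets separate the strands was not tested. These probe sets are given as values, with no test.

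By complex, the nuclear genes of oxidative phosphorylation had these counts, with differences between complexes not tested. They stand beside 44.7% higher and 29.1% lower among the bright genes. Complex I had 21 of 36 genes higher and 8 lower (median 0.23), and complex II had 2 of 3 higher and 0 lower (median 0.35). Complex IV had 7 of 10 higher and 2 lower (median 0.48), and complex V, the ATP synthase, had 13 of 18 higher and 2 lower (median 0.27). Complex III had 2 of 8 higher and 2 lower (median 0.03).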
